A study of Rattus norvegicus with 27 samples.

Results

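Nefl, Nefm, Nefh, Ina, Gap43, Map2, Mapt, Tubb3 and Tmsb4x encode structural proteins of the axonal and dendritic cytoskeleton, a growth cone protein and an actin-binding peptide. They were followed through every group of a rat study of brain ischemia. Members were the probe sets whose single gene symbol in the platform annotation was one of these names, with the brightest kept for a gene. Each of the 9 genes had exactly 1 such probe set, out of 18166 genes with a single-symbol probe set, and all 9 were among the 12716 genes bright enough to be tested.

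All animals were male Long Evans rats. Sham-operated animals were the non-ischemic controls (NIC), and the others underwent 10 min of normothermic global brain ischemia, induced by occluding both carotid arteries with hypotension from blood loss, followed by 8 h of reperfusion (8R). Hippocampal CA1 or CA3 of 5 rats was pooled for each replicate, and the post-mitochondrial supernatant of the pool was divided into total RNA and an RNA fraction pelleted with polysomes through a sucrose pad. The 27 Affymetrix Rat Gene 2.0 arrays formed 8 groups of condition, region and fraction, with 3 arrays in each NIC group and in 8R CA1 polysome RNA, and 4 in the other 8R groups. The same mass of RNA was stated for labelling, so each value is a share of the labelled RNA rather than an amount per cell, and a pad pellet does not separate messages by ribosome number. In such bulk tissue, fewer cells of a type and less RNA per cell cannot be told apart. Total and polysome arrays of a region can come from the same pool of rats, and the arrays within a group are separate replicates in the labels. The number of arrays limits the precision of a group.

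Neurofilaments are the intermediate filaments of large axons. They are built from a light (Nefl), a medium (Nefm) and a heavy (Nefh) subunit together with alpha-internexin (Ina), and set the calibre of the axon. Microtubules of neurons contain the neuron-specific beta-tubulin Tubb3, and are bound by Map2 mainly in dendrites and by tau (Mapt) mainly in axons. Gap43 is a membrane-attached protein of growth cones and presynaptic endings, and thymosin beta-4 (Tmsb4x) sequesters actin monomers. Global ischemia is known for the delayed loss of CA1 pyramidal neurons, with CA3 better preserved.

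RefSeq promoter sequence, in the GRCr8 build, was held here for Ina, Map2, Tubb3 and Tmsb4x and not for Nefl, Nefm, Nefh, Gap43 or Mapt. The 250 bases upstream of the annotated start are shown for the 3 of these genes whose total RNA changed after ischemia: Ina (chr1:255837879-255838128, plus strand), which rose in CA1, Tubb3 (chr19:68365437-68365686, plus strand), which fell in CA1, and Tmsb4x (chrX:30761361-30761610, plus strand), which fell in CA3. Capitals mark matches to the motifs searched on both strands, so a match on the opposite strand reads as its reverse complement.
Ina: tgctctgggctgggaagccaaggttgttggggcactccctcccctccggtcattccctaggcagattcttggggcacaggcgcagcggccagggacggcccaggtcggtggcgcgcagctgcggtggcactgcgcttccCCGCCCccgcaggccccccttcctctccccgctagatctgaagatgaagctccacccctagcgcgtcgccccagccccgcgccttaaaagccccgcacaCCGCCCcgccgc
Tubb3: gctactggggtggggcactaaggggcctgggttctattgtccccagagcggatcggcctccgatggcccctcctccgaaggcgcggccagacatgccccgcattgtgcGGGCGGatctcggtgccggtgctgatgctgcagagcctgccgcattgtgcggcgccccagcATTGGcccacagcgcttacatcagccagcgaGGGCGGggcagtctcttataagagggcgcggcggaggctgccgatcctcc
Tmsb4x: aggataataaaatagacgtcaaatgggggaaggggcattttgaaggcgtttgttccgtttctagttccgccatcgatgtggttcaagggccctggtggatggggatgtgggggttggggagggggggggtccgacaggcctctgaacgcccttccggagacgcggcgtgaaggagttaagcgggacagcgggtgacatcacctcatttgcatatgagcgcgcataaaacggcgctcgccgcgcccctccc
The motifs were the TATA box TATAAA, the CCAAT box CCAAT, the GC box GGGCGG, the full cAMP response element TGACGTCA and the AP-1 site TGANTCA, none of which contains another. Of 33469 rat promoters of this length, 12.9%, 34.0%, 30.5%, 1.59% and 6.34% held them, in that order. The Ina window held 2 GC boxes on the opposite strand, at -111 to -106 and at -12 to -7 from the annotated start. The Tubb3 window held GC boxes at -142 to -137 and at -50 to -45 and a CCAAT box on the opposite strand at -81 to -77. None of these letters occurred in the Tmsb4x window. GC content was 70.8% for Ina, 68.0% for Tubb3 and 59.2% for Tmsb4x. These matches describe the sequence and are no evidence that a factor binds there.

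Values are deposited intensities, and differences are on the scale of log2(intensity + 16), which understates the change of dim genes. A gene was called at a limma p-value, adjusted by Benjamini-Hochberg over all 12716 genes, under 0.05, and an error after ± is the standard error of the fit. Levels are compared across groups only within a gene. Median intensity per array lay between 25.6 and 38.1, and the lowest correlation between arrays of a group between 0.946 and 0.985. The median standard deviation of a gene within a group was 0.0985 to 0.109 log2 in NIC and 0.149 to 0.173 in 8R. In NIC total RNA 2 of 5 CA1 pyramidal markers were called higher in CA1, led by Wfs1 (1.64 ± 0.17 log2), and 2 of 6 CA3 pyramidal markers lower, Kcnq5 (-0.63) and St18 (-0.62). Summed intensity of 4 dentate granule markers was 203 to 270 in CA1 and 157 to 168 in CA3 of NIC total RNA. Markers of other cells were present too. The summed intensity of 9 oligodendrocyte markers ranged from 3096 to 3679 in NIC CA1 total RNA and from 1850 to 2230 in NIC CA3, and 8 of the 9 were called higher in CA1. Among the markers of the 9 cell types listed, Tmem119, Itgam, Vip, Coch, Lct, Tdo2, Tek and Cdh5 were too dim to be tested. The lowest intensity of Tdo2 was 0.27.

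One 8R pool, number 4, differed from the other 8R pools in some of these genes. For Gap43, pool 4 minus the mean of the other pools was -0.61 log2 in CA1 total RNA, -0.86 in CA1 polysome RNA, -0.77 in CA3 total RNA and -0.94 in CA3 polysome RNA. For Tubb3 the same differences were -0.60, -0.68, -0.38 and -0.40, and for Nefh they were within -0.11 and -0.01, while the median of all genes was between -0.07 and 0.02. Called results that depend on this pool are given with and without it. Fits without pool 4 were chosen with earlier results of these data known, so a call gained in them is no independent support.

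**Figure D1:**
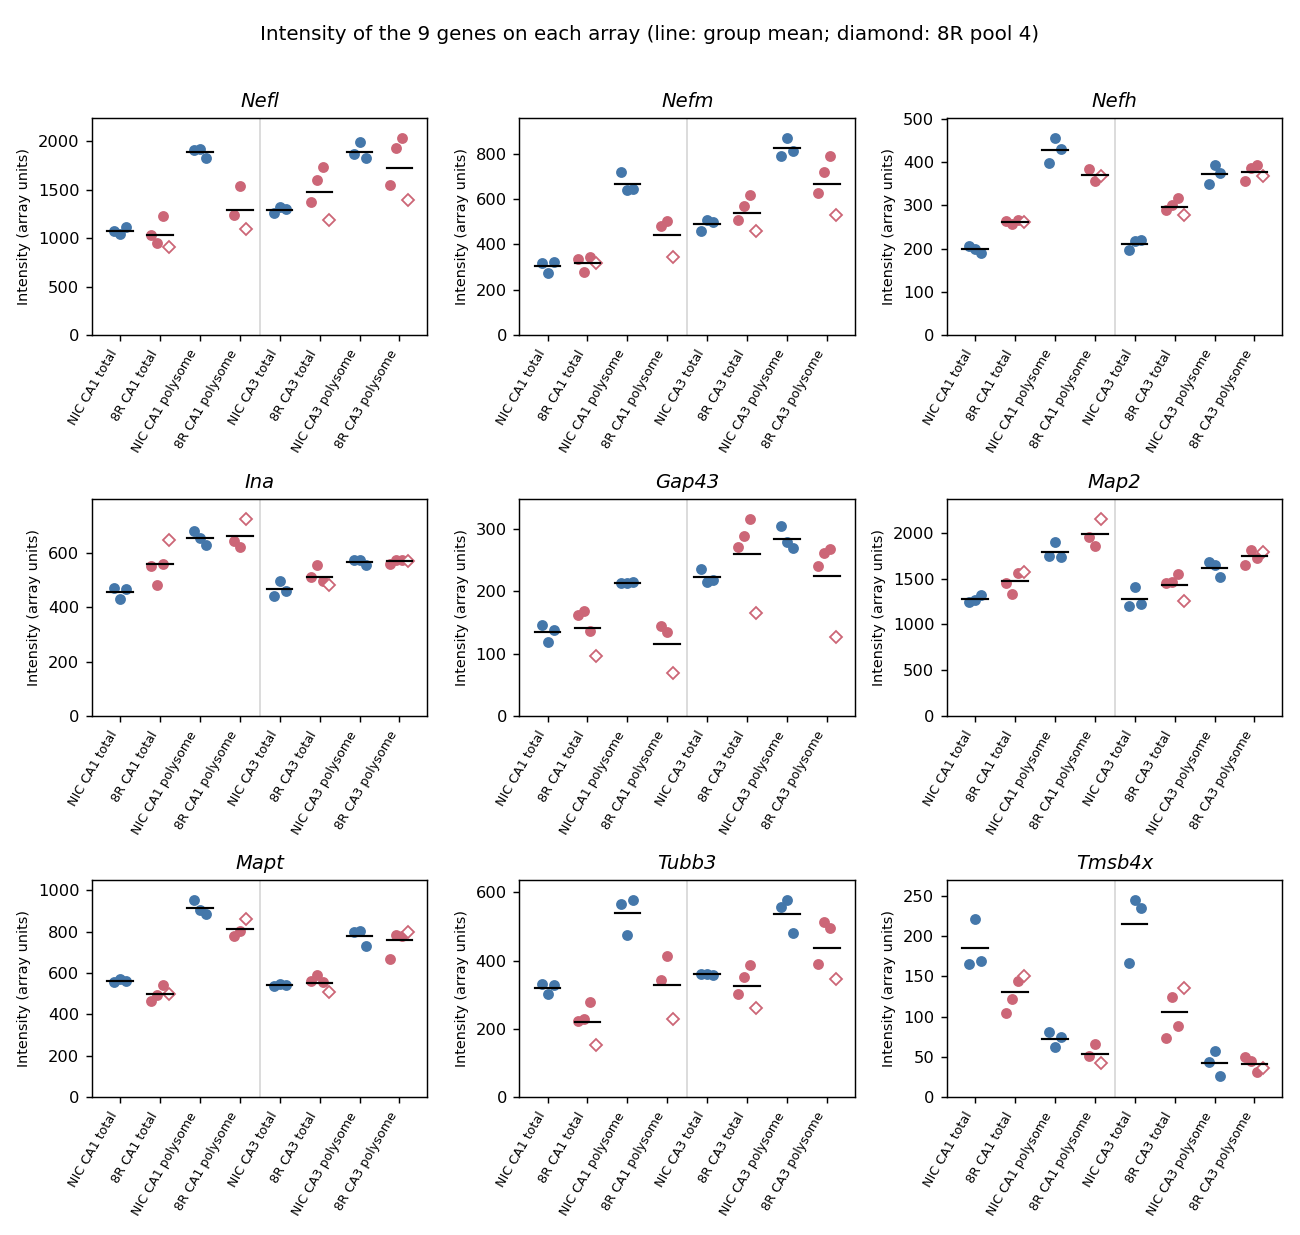
Intensity of each gene (y axis, linear array units from 0) on the 27 arrays, in the 8 groups of condition, region and fraction (x axis). NIC is blue and 8R red, lines are group means and open diamonds are pool 4 of 8R. Polysome values lie above total values in most panels and below them for Tmsb4x.

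Total RNA of the neurofilament heavy chain rose after ischemia in both regions. Nefh intensity was 190, 199 and 206 in NIC CA1 and 258, 261, 264 and 266 in 8R CA1. In CA3 it was 196, 217 and 220 in NIC and 278, 289, 301 and 318 in 8R. All 8R arrays thus lay above all NIC arrays in both regions. Over all genes tested, 8R and NIC arrays did not overlap, in either direction, for 34.6% in CA1 and 24.6% in CA3 total RNA. The rise of Nefh was 1.30-fold in CA1 (0.38 ± 0.08 log2, n = 4 and 3, limma adjusted p = 0.000809) and 1.38-fold in CA3 (0.46 ± 0.08, n = 4 and 3, limma adjusted p = 0.000256). Neither call was lost when any array was left out or under any of the other settings tried.

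Of the other filament subunits, Ina rose in CA1 and Nefl and Nefm were not called. Alpha-internexin (Ina) had 429, 467 and 470 in NIC CA1 total RNA and 482, 553, 559 and 647 in 8R, again with no overlap (1.22-fold, 0.28 ± 0.09 log2, n = 4 and 3, limma adjusted p = 0.016). That call was lost without NIC CA1 total replicate 2 (limma adjusted p = 0.0937) or 8R CA1 total replicate 4 (0.0689), with quantile normalization (0.109), with median scaling (0.0989) and in a fit of only the groups compared (0.0663). In CA3 total RNA its difference was 0.13 ± 0.09. The light chain Nefl had 1047, 1077 and 1115 in NIC CA1 and 914, 949, 1031 and 1233 in 8R, so that the 8R arrays spread across the NIC values. Its log2 difference was -0.07 ± 0.13 in CA1 and 0.17 ± 0.13 in CA3, and that of Nefm was 0.06 ± 0.12 and 0.13 ± 0.12. None of these 5 differences passed the test (limma adjusted p between 0.365 and 0.759).

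Beta-tubulin Tubb3 fell in CA1 total RNA. Its intensity was 302, 328 and 332 in NIC and 154, 222, 230 and 278 in 8R, all below NIC, with pool 4 the lowest (1.45-fold lower, -0.53 ± 0.17 log2, n = 4 and 3, limma adjusted p = 0.017). Leaving out NIC CA1 total replicate 1, NIC replicate 3 or 8R replicate 4 raised the limma adjusted p to 0.0578, 0.0556 and 0.0769, while without the pool 4 arrays of all 4 groups the value was -0.38 (0.00575). In CA3 the 8R arrays, 261 to 386, spread around the NIC values of 357 to 361 (-0.15 ± 0.17, and -0.06 without the pool 4 arrays).

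Map2 and Mapt differed little. Map2 had 1249, 1261 and 1325 in NIC CA1 total RNA and 1327, 1447, 1563 and 1574 in 8R, which did not overlap but did not pass the test (0.20 ± 0.08 log2, n = 4 and 3, limma adjusted p = 0.0687). Mapt was below NIC on all 8R CA1 arrays, 467 to 540 against 557 to 571 (-0.16 ± 0.08, n = 4 and 3, limma adjusted p = 0.135). With quantile normalization or median scaling this Mapt difference was called, at -0.25 and -0.27. In CA3 the log2 differences were 0.16 ± 0.08 for Map2 and 0.03 ± 0.08 for Mapt.

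Thymosin beta-4 showed the largest change in total RNA among the 9 genes. Tmsb4x intensity was 166, 234 and 245 in NIC CA3 and 73.1, 88.0, 125 and 136 in 8R CA3, all below NIC (1.92-fold lower, -0.94 ± 0.18 log2, n = 4 and 3, limma adjusted p = 0.000691). This call was kept in every leave-one-out and every other setting tried. In CA1 all 8R arrays, 105 to 150, were also below NIC, 166 to 221, without passing the test (-0.46 ± 0.18, n = 4 and 3, limma adjusted p = 0.0631), and did pass it with quantile normalization (-0.63) and median scaling (-0.57). Near-identical thymosin copies exist in the rat gene table, so part of this signal may come from them. Gap43 differed by 0.04 ± 0.21 in CA1 (0.19 without the pool 4 arrays, limma adjusted p = 0.0857) and 0.17 ± 0.21 in CA3 total RNA, where the 8R arrays ran from 165 in pool 4 to 316 against 215 to 236 in NIC. Without the pool 4 arrays the CA3 difference was 0.36 and passed the test (limma adjusted p = 0.0021), as did Nefl (0.27, limma adjusted p = 0.0332) and Map2 (0.22, 0.0218). In each of these genes pool 4 was the lowest 8R array of that group, so leaving it out raised the 8R mean.

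In all, 3 of the 9 genes were called in CA1 total RNA, where 26.3% of the genes tested were called, and 2 of 9 in CA3, where 15.5% were. Their median difference was 0.04 log2 in CA1 and 0.13 in CA3, against 0.04 and 0.08 for all genes tested. Genes called higher outnumbered those called lower, 2561 to 782 in CA1 and 1805 to 170 in CA3. Median scaling made this 1849 to 1919 in CA1 and 830 to 535 in CA3 and moved the median of all genes to -0.06 and -0.03. Nefh, Tubb3 and Tmsb4x kept their direction under both scalings.

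On CA1 polysomes Nefl, Nefm, Gap43 and Tubb3 fell and none of the 9 genes rose on the scale as deposited, with 8.33% of the genes tested called in either direction. Nefl had 1834, 1910 and 1923 in NIC and 1098, 1245 and 1544 in 8R (1.47-fold lower, -0.55 ± 0.13 log2, n = 3 and 3, limma adjusted p = 0.0097). Nefm had 640, 645 and 719 in NIC and 346, 480 and 504 in 8R (1.51-fold lower, -0.59 ± 0.13, n = 3 and 3, limma adjusted p = 0.00543). In both genes every 8R array lay below every NIC array. These groups did not overlap for 6 of the 9 genes and, in either direction, for 24.2% of all genes tested. Gap43, even across the NIC arrays at 213, 213 and 215, had 69.3, 135 and 144 in 8R (1.80-fold lower, -0.85 ± 0.23, n = 3 and 3, limma adjusted p = 0.0181). Tubb3 went from 473, 566 and 577 to 229, 342 and 412 (1.65-fold lower, -0.72 ± 0.18, n = 3 and 3, limma adjusted p = 0.0102). The pool 4 array was the lowest of the 3 in all 4 genes.

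These 4 calls depended on the pool 4 array of this group. Without it 0 of the 9 genes were called, with 423 genes called over the whole array in place of 1059, and the log2 differences were -0.44 for Nefl, -0.43 for Nefm, -0.56 for Gap43 and -0.50 for Tubb3 (limma adjusted p = 0.0858, 0.0727, 0.181 and 0.12). Leaving out the pool 4 arrays of all 4 8R groups gave the same differences with all 4 called (0.0107, 0.00858, 0.000442 and 0.00848). Gap43 was also no longer called without any one of the 3 NIC arrays (0.0545 to 0.0559).

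Nefh, which rose in CA1 total RNA, had 398, 431 and 456 on NIC polysomes and 355, 368 and 384 in 8R, all below NIC but not called (-0.21 ± 0.09, n = 3 and 3, limma adjusted p = 0.145). Ina, Map2 and Mapt differed by 0.01 ± 0.09, 0.15 ± 0.09 and -0.16 ± 0.09, and Tmsb4x by -0.36 ± 0.20, with no call. With quantile normalization Map2 was called higher (0.37, limma adjusted p = 0.00737), and with median scaling Nefh was called lower (-0.25, limma adjusted p = 0.0406). The median over the 9 genes was -0.36 log2 against 0.01 for all genes tested. Of the genes called, 58.5% were higher, and 35.4% with median scaling.

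In CA3 polysome RNA 0 of the 9 genes were called by limma, where 2.66% of the genes tested were (89.6% of them higher, and 74.5% with quantile normalization or 65.3% with median scaling). At an unadjusted p under 0.05 there was 1 of the 9, and 2385 of all 12716 genes. It was Nefm, whose 8R arrays at 531, 626, 719 and 788 lay just below the NIC arrays at 790, 811 and 870 (-0.31 ± 0.12, n = 4 and 3, limma adjusted p = 0.162). Gap43 arrays in 8R, 126 to 268, were also all below NIC, 270 to 305 (-0.37 ± 0.21), with pool 4 the lowest. The groups did not overlap for these 2 of the 9 genes and, in either direction, for 17.7% of all genes tested. Without the pool 4 arrays the Gap43 difference was -0.14 (limma adjusted p = 0.405) and that of Nefl moved from -0.15 to -0.05. The difference between the regions was itself tested. The change in CA1 minus that in CA3 was called for 0 of the 9 genes in total RNA (limma, 0.0236% of the genes tested called, 0 of the 9 and 663 of all genes at an unadjusted p under 0.05) and for 0 of 9 in polysome RNA (limma, 0.0157% called, 1 of the 9 and 707 of all genes at an unadjusted p under 0.05). For Nefl on polysomes it was -0.41 ± 0.18 log2 (limma adjusted p = 0.866), so the calls in CA1 alone do not show that the regions differed.

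**Figure D2:**
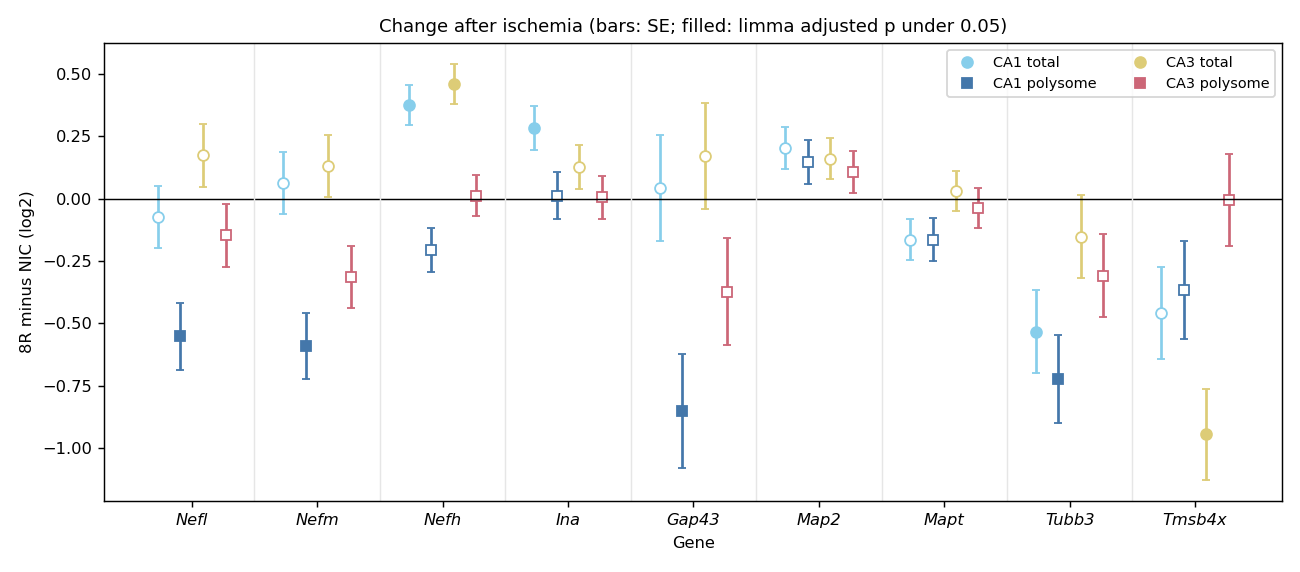
Log2 difference of 8R minus NIC (y axis) for each gene (x axis) in CA1 and CA3 total and polysome RNA, with bars of 1 standard error and filled symbols for limma adjusted p under 0.05. Nefh lies above 0 in total RNA of both regions, and Nefl, Nefm, Gap43 and Tubb3 lie lowest in CA1 polysome RNA.

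Markers of some cell types also differed between 8R and NIC, and those of others overlapped. The summed intensity of 6 markers listed as pan-neuronal ranged from 8364 to 8801 in NIC CA1 total RNA and from 6426 to 7616 in 8R. Of the 6, 4 fell (median -0.39 log2). Slc17a7 and Neurod6 on this list mark excitatory neurons, and Snap25, at a mean intensity of 3996, made up the largest part of the sum. Snap25 and Rbfox3 were among markers chosen after their values were seen. On CA1 polysomes the sum ranged from 9239 to 10058 and from 7574 to 8512, and 3 of 6 fell, among them Neurod6 (-0.90), Rbfox3 (-0.44) and Snap25 (-0.24). Sums over 10 microglial markers went from 478 to 514 in NIC CA1 total RNA to 592 to 711 in 8R, with 4 of the 8 that were bright enough to be tested rising, led by C1qb (0.63 ± 0.14). In CA3 total RNA the pan-neuronal sums, 8231 to 8944 and 7619 to 8510, overlapped, and microglial sums went from 404 to 494 to 550 to 602 with 3 of 8 markers rising. Summed intensity of 7 astrocyte markers went from 3113 to 3313 in NIC CA1 total RNA to 3724 to 4430 in 8R, with 3 of 7 rising. On CA1 polysomes the astrocyte sums overlapped, at 4221 to 4327 in NIC and 4148 to 4998 in 8R. Sums over 5 CA1 pyramidal markers overlapped in both fractions of CA1. They were 1082 to 1244 in NIC and 830 to 1429 in 8R total RNA, and 1465 to 1806 and 1180 to 1950 on polysomes. On CA1 polysomes sums over 7 CA3 pyramidal markers went from 1318 to 1418 to 929 to 971, with 3 of the 6 tested falling. Sums over 9 interneuron markers went there from 1858 to 2001 to 2158 to 2506, with none of the 8 tested called by limma. The part of these cell types in the differences of the 9 genes was not tested.

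Other cytoskeletal genes were taken from lists of related function, which were chosen with earlier results of these data known. Of all 12716 genes tested, 2561 rose and 782 fell in CA1 total RNA, and 619 rose and 440 fell on CA1 polysomes. In CA3 total RNA 1805 rose and 170 fell. Among 8 further intermediate filament genes, Vim and Gfap, which encode filaments of astrocytes and other non-neuronal cells, and the lamin Lmna rose in each of the 4 comparisons of 8R with NIC, Vim by 1.27 to 1.45 log2 and Gfap by 0.71 to 1.04. None of the 8 fell in any of the 4. Of 12 further tubulins and tubulin-folding cofactors, 3 rose and 2 fell in CA1 total RNA, and 1 rose and 5 fell on CA1 polysomes. Tuba1c rose by 1.14 ± 0.29 and 1.25 ± 0.31 log2 in those fractions while Tuba1b fell (-0.76 ± 0.10 and -0.48 ± 0.11). These alpha-tubulins are near-identical in sequence, so the array may not separate them.

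For the counts that follow, 26.3% of all genes tested were called in CA1 total RNA, 8.33% on CA1 polysomes and 15.5% in CA3 total RNA. Of 28 microtubule-associated genes, 5 rose and 6 fell in CA1 total RNA and 1 rose and 5 fell on CA1 polysomes. The stathmins, which bind free tubulin, split: Stmn2 (-0.66 ± 0.13) and Stmn3 (-0.58 ± 0.13) fell on CA1 polysomes and Stmn4 rose (0.50 ± 0.12). Of 21 motor genes of axonal transport, 6 rose and 1 fell in CA1 total RNA, whereas 0 rose and 6 fell on CA1 polysomes, among them the kinesin genes Kif5c (-0.56 ± 0.14) and Kif3c (-0.54 ± 0.15). In CA3 total RNA 6 rose and none fell, led by the dynein heavy chain Dync1h1 (0.61 ± 0.12). Of 16 genes listed with growth cone and collapsin response mediator proteins, 0 rose and 3 fell in CA1 total RNA: Marcks (-0.63 ± 0.14), which binds actin at the membrane, Nrgn (-0.43 ± 0.09), a postsynaptic calmodulin-binding protein, and Nfasc (-0.38 ± 0.11), a cell adhesion protein of the axon initial segment and of oligodendrocytes.

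Among 15 actin regulators 4 rose in CA1 total RNA, where 26.3% of all genes tested were called, led by twinfilin Twf1 (0.72 ± 0.13). Of 12 spectrin and ankyrin genes 2 rose there and 3 in CA3, where 15.5% of all genes were called. Sptan1 was among them (0.26 ± 0.09 and 0.49 ± 0.09). Of 19 kinases, phosphatases and calpains that act on the cytoskeleton, 4 rose and 5 fell in CA1 total RNA. The calpain subunit Capn2, a protease that cleaves spectrin and neurofilaments, rose (0.74 ± 0.11 in CA1 and 0.68 ± 0.11 in CA3), and Cdk5r2, an activator of the neurofilament kinase Cdk5, fell (-0.73 ± 0.09 and -0.36 ± 0.09). In CA3 polysome RNA only the intermediate filament list, with 3, and the tubulin list, with Tuba1c (1.13 ± 0.29), had called genes among the 8 lists.

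Comparing polysome with total RNA within a region addresses which messages are over- or under-represented in the polysome pellet. In NIC CA1 all 9 genes were called, 8 higher and 1 lower, where 44% of all genes tested were called. Nefm had 640, 645 and 719 on polysomes against 275, 317 and 320 in total RNA (2.14-fold, 1.10 ± 0.13 log2, n = 3 and 3, limma adjusted p = 3.07e-07). Nefh had 398, 431 and 456 against 190, 199 and 206 (2.07-fold, 1.05 ± 0.09, n = 3 and 3, limma adjusted p = 9.93e-10). Nefl followed with 0.80 ± 0.13, Tubb3 with 0.72 ± 0.18, Mapt with 0.69 ± 0.09 and Gap43 with 0.62 ± 0.23. Ina (0.51 ± 0.09) and Map2 (0.48 ± 0.09) had the smallest excess. In each of these 8 genes every polysome array lay above every total array, and over all genes tested the 2 groups did not overlap, in either direction, for 57.5%.

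Tmsb4x went the opposite way. It had 62.4, 74.9 and 81.2 on polysomes and 166, 169 and 221 in total RNA of NIC CA1 (2.26-fold lower, -1.17 ± 0.20 log2, n = 3 and 3, limma adjusted p = 1.94e-05). In NIC CA3 the gap was wider, 25.8, 44.4 and 57.0 against 166, 234 and 245 (4.01-fold lower, -2.00 ± 0.20, n = 3 and 3, limma adjusted p = 1.25e-08). The CA3 polysome values lay near the median intensity of those arrays, 25.6 to 27.3, so the size of that gap is uncertain. Tmsb10, a relative of Tmsb4x and also an actin-sequestering thymosin, was lower on polysomes as well. Its log2 differences were -1.39 ± 0.14 in NIC CA1 and -1.76 ± 0.14 in NIC CA3.

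In NIC CA3, 7 of the 9 genes were higher on polysomes and 1 lower, where 38.4% of all genes were called. Nefh (0.78 ± 0.09) and Nefm (0.73 ± 0.13) again led, followed by Tubb3 (0.56 ± 0.18), Nefl (0.54 ± 0.13) and Mapt (0.51 ± 0.09). Gap43 had 270, 279 and 305 on polysomes and 215, 219 and 236 in total RNA, which did not overlap but was not called (0.33 ± 0.23, n = 3 and 3, limma adjusted p = 0.257). Over all genes tested these groups did not overlap, in either direction, for 56.8%. The median of the 9 genes was 0.51 in CA3, where the median of all genes was -0.00. It was 0.69 in CA1, where all genes were shifted by 0.20. After quantile normalization the CA1 median of all genes was 0.01 and 2365 genes were called higher and 1807 lower, in place of 5012 and 588. Nefm (0.74), Nefh (0.65), Nefl (0.52), Mapt (0.39) and Tmsb4x (-1.45) were still called, and Ina, Gap43, Map2 and Tubb3 kept their direction without passing the test. Gap43 in NIC CA1 was called in 1 of 6 leave-one-outs.

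After ischemia 7 of the 9 genes were still called higher on CA1 polysomes than in total RNA, where the median of all genes was 0.18 log2. In 8R CA1 Nefm had 346, 480 and 504 on polysomes against 277, 316, 334 and 346 in total RNA (1.36-fold, 0.45 ± 0.12 log2, n = 3 and 4, limma adjusted p = 0.00665), and Nefh had 355, 368 and 384 against 258 to 266 (1.38-fold, 0.47 ± 0.08, n = 3 and 4, limma adjusted p = 7.05e-05). Mapt had the same excess as in NIC, 0.69, with 781, 802 and 861 against 467 to 540 (1.61-fold, ± 0.08, n = 3 and 4, limma adjusted p = 4.39e-07). Map2 was higher by 0.42 ± 0.08, Tubb3 by 0.52 ± 0.17, Nefl by 0.32 ± 0.13 and Ina by 0.24 ± 0.09, which was close to the shift of all genes. Gap43 was not higher (-0.28 ± 0.21) and Tmsb4x was lower (-1.08 ± 0.18). In all, 7 genes were called higher and 1 lower, where 34.4% of all genes were called. Of these calls, Nefl, Ina and Tubb3 were lost under both scalings, Nefm with median scaling (0.29, limma adjusted p = 0.0561), and Nefl in 5 of 7 leave-one-outs. Of all genes called, 82.8% were higher, and 52.6% with quantile normalization.

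In 8R CA3, Nefh (0.33 ± 0.08), Map2 (0.28 ± 0.08) and Mapt (0.44 ± 0.07) were called higher and Tmsb4x lower (-1.07 ± 0.17), 4 of 9 where 20.6% of all genes were called (37.3% of them higher, and 59.2% with median scaling). Arrays of the same 8R pool moved together, so total and polysome RNA of a pool can be compared as a pair. With a fixed replicate block 8 of the 9 genes were called in 8R CA3, with 4031 of all genes called in place of 2624, adding Nefl (0.22, limma adjusted p = 0.00467), Nefm (0.29, 0.00599), Tubb3 (0.40, 0.000144) and Gap43, which was lower on polysomes (-0.21, 0.0359). A random replicate block called 7, without Gap43 (limma adjusted p = 0.242). Gap43 was below its total RNA in each of the 4 pools, by -0.16, -0.13, -0.22 and -0.35 log2 in pools 1 to 4.

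**Figure D3:**
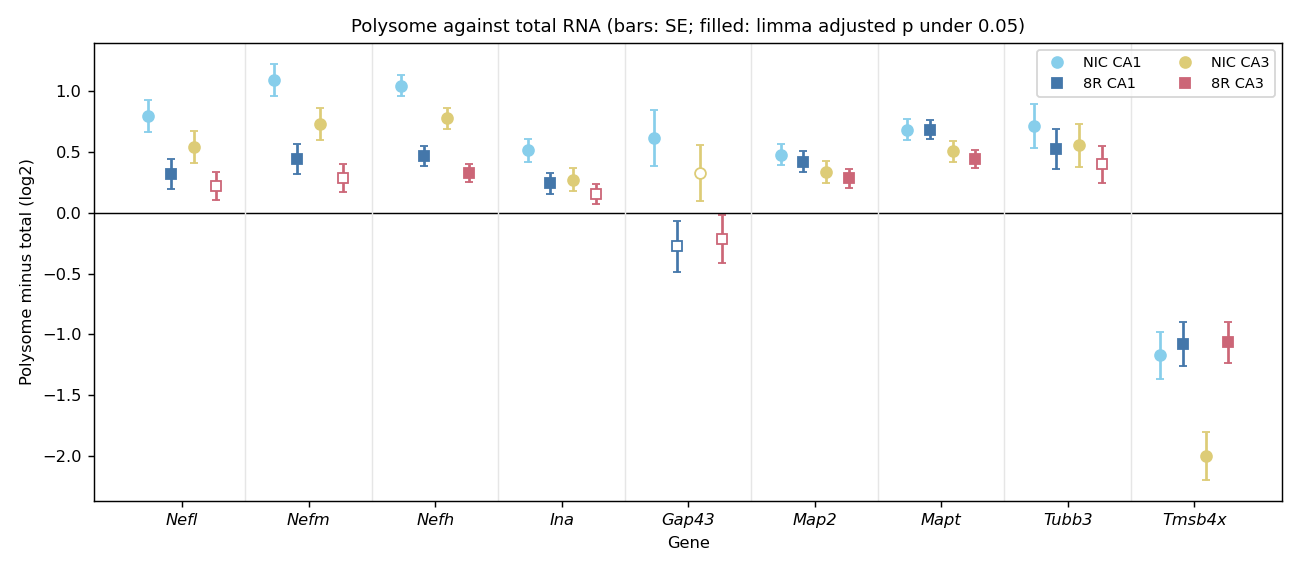
Log2 difference of polysome minus total RNA (y axis) for each gene (x axis) in NIC and 8R of both regions, with bars of 1 standard error and filled symbols for limma adjusted p under 0.05. The excess of Nefm in CA1 is 1.10 in NIC and 0.45 in 8R, that of Mapt 0.69 in both, and Tmsb4x is below 0 in all 4.

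The change in the polysome excess was tested directly as the ischemic change on polysomes minus that in total RNA. In CA1 it was called for Nefm (-0.65 ± 0.18 log2, n = 3, 3, 4 and 3 arrays, limma adjusted p = 0.04) and Nefh (-0.58 ± 0.12, limma adjusted p = 0.0102), 2 of 9 genes where 3.82% of all genes tested were called (10.7% of them upward, and 40% with quantile normalization). Paired by number, the polysome excess of Nefm was 1.14, 1.17 and 0.98 in NIC and 0.50, 0.52 and 0.12 in 8R pools 1, 3 and 4. For NIC it is not shown that same-numbered arrays come from the same pool. That of Nefh was 0.90, 1.13 and 1.11 in NIC and 0.51, 0.40 and 0.47 in 8R. Nefl had 0.71 to 0.87 in NIC and 0.26 to 0.32 in 8R, and its difference was not called (-0.48 ± 0.18, limma adjusted p = 0.123). The NIC and 8R values did not overlap for Nefm, Nefh, Nefl, Ina, Gap43 and Tubb3, and overlapped for Map2, Mapt and Tmsb4x. How many of all genes did not overlap in this way was not computed. The median of all genes was 0.21 to 0.25 in NIC and 0.14 to 0.19 in 8R. Gap43 had the largest difference without a call (-0.89 ± 0.31, limma adjusted p = 0.0945). Without the pool 4 arrays the Gap43 difference was smaller and was called (-0.76, limma adjusted p = 0.0018). Map2 (-0.06 ± 0.12) and Mapt (-0.00 ± 0.12) lay near 0, and Ina and Tubb3 had -0.27 ± 0.13 and -0.19 ± 0.24.

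The Nefh call held in all 13 leave-one-outs and was lost with quantile normalization (-0.33, limma adjusted p = 0.0979). The Nefm call was lost in 9 of 13 leave-one-outs, from each NIC CA1 array and from 8R CA1 polysome replicate 3 and total replicates 1 and 3, at differences between -0.69 and -0.49, as well as with no filter on low values and in a fit of only the groups compared. With the fixed replicate block 4 genes were called in CA1, with 2174 of all genes called in place of 486: Nefl (-0.46, limma adjusted p = 0.00175) and Gap43 (-0.82, 0.00013) with Nefm and Nefh, but same-numbered NIC arrays did not deviate together, so for NIC that pairing is not shown. Among the context genes Tbcb, a tubulin-folding cofactor (-0.74 ± 0.16), Map7d2 (-0.72 ± 0.18), Mapre1 (-0.68 ± 0.19), Arpc2 (-0.62 ± 0.15) and Dync1li1 (-0.48 ± 0.12) showed a called difference of the same sign.

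In CA3 the same test called 0 of the 9 genes by limma, where 0.165% of all genes were called, and 3 of the 9, Nefm, Nefh and Tmsb4x, reached an unadjusted p under 0.05, as did 2622 of all 12716 genes. Nefh had -0.45 ± 0.11 (limma adjusted p = 0.0679) and Nefm -0.44 ± 0.18 (0.17). Paired by number, Nefh had an excess of 0.79, 0.81 and 0.73 in NIC, where a shared pool is not shown, and 0.29, 0.35, 0.30 and 0.38 in 8R. For Tmsb4x the difference had the opposite sign and was not called (0.94 ± 0.26, limma adjusted p = 0.0799). Its total RNA fell, while its polysome arrays, 31.7 to 50.6 in 8R and 25.8 to 57.0 in NIC, overlapped. These polysome values lay near the median intensity of the same arrays, 27.1 to 31.8 in 8R and 25.6 to 27.3 in NIC. A fall at such levels is hard to measure, which limits this difference. Leaving out the 8R pool 4 arrays gave 4 calls in CA3, with 1258 of all genes called, and the fixed replicate block gave 5, with 2094 of all genes called. Whether CA1 and CA3 differed in this change was not tested.

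The other cytoskeletal lists had more genes called higher than lower on NIC polysomes, where 5012 of all genes were called higher in CA1 and 2732 in CA3. Of 21 motor genes 19 were higher in CA1 and 20 in CA3, with medians of 0.83 and 0.67. Of 12 spectrin and ankyrin genes 12 and 10 were higher (medians 0.81 and 0.63), and of 28 microtubule-associated genes 21 and 19. The medians of the remaining lists were 0.56 and 0.44 for growth cone genes (13 and 9 of 16 higher), 0.39 and 0.15 for actin regulators (10 and 5 of 15), 0.37 and 0.15 for tubulins (7 and 5 of 12), 0.30 and 0.16 for kinases and calpains (10 and 5 of 19) and 0.27 and 0.15 for intermediate filaments (3 and 3 of 8). In 8R the motor genes had medians of 0.46 in CA1 and 0.31 in CA3, with 16 and 9 called higher. Sums of pan-neuronal markers were 9239 to 10058 on polysomes and 8364 to 8801 in total RNA of NIC CA1, and 8358 to 8713 and 8231 to 8944 in NIC CA3. Of the 6, 1 was higher on polysomes in CA1, Syt1 (0.34 ± 0.09), and 0 in CA3.

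Comparing CA1 with CA3 showed Nefm and Gap43 at lower intensity in CA1. In NIC total RNA Nefm had 275, 317 and 320 in CA1 and 461, 501 and 505 in CA3 (1.58-fold lower, -0.66 ± 0.13 log2, n = 3 and 3, limma adjusted p = 0.00268), 1 of 9 genes called where 3.47% of all genes were (69.4% of them higher, and 58.1% with quantile normalization). This call held in every leave-one-out and every other setting. Gap43 had 119, 138 and 146 in CA1 and 215, 219 and 236 in CA3, a difference of the same size that did not pass the test (1.60-fold lower, -0.67 ± 0.23, n = 3 and 3, limma adjusted p = 0.111). It was called with quantile normalization (-0.70, limma adjusted p = 0.0376). Map2 (0.00 ± 0.09), Ina (-0.04 ± 0.09), Mapt (0.05 ± 0.09) and Nefh (-0.08 ± 0.09) were near 0, and Nefl (-0.26 ± 0.13), Tubb3 (-0.16 ± 0.18) and Tmsb4x (-0.19 ± 0.20) were not called.

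After ischemia 4 of 9 genes were called lower in CA1 total RNA, where 6.63% of all genes were called: Nefm (-0.73 ± 0.12), Nefl (-0.51 ± 0.12), Gap43 (-0.80 ± 0.20) and Tubb3 (-0.54 ± 0.15; limma adjusted p = 8.62e-05, 0.00563, 0.00954 and 0.0294). Of these, Nefm was the only one whose groups did not overlap, 277 to 346 in CA1 and 461 to 620 in CA3. Over all genes tested these groups did not overlap, in either direction, for 9.47%. Gap43 ranged from 96.5 to 168 in CA1 and from 165 to 316 in CA3, with the lowest value of each region in pool 4. The Tubb3 call was lost in 4 of 8 leave-one-outs (8R CA1 total replicates 1 and 4, CA3 total replicates 2 and 3) and Gap43 in 2 (8R CA1 total replicate 4, CA3 total replicate 3). The increase in the number of calls from NIC to 8R is not itself a difference, since the change in CA1 minus that in CA3 was called for none of the 9 genes.

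On polysomes, where CA1 was higher than CA3 for all genes together by 0.23 log2 in NIC and 0.19 in 8R, 2 of 9 genes were called in NIC (28.4% of all genes called) and 3 of 9 in 8R (25.3%). Nefl, at -0.00 ± 0.13 in NIC and -0.41 ± 0.13 in 8R, Nefm, at -0.30 ± 0.13 and -0.57 ± 0.12, and Gap43, at -0.39 ± 0.23 and -0.87 ± 0.21, were called lower in CA1 in 8R and not in NIC, a difference between conditions that was itself not called. In NIC Tmsb4x (0.64 ± 0.20, limma adjusted p = 0.0175) and Mapt (0.23 ± 0.09, 0.0444) were higher in CA1. For Mapt this was close to the shift of all genes: the call was lost in each of 6 leave-one-outs, and with median scaling the difference was -0.00 (limma adjusted p = 0.991). The Tmsb4x call was lost without NIC CA1 polysome replicate 1 (0.074) or NIC CA3 polysome replicate 3 (0.41, limma adjusted p = 0.15) and under both scalings. Nefm on NIC polysomes was called lower in CA1 with quantile normalization (-0.49) and median scaling (-0.53). These scalings brought the median of all genes to -0.01 and -0.00 in NIC and to -0.01 and -0.04 in 8R. Quantile normalization changed the genes called higher and lower from 3516 and 93 to 335 and 236 in NIC, and from 3066 and 157 to 577 and 550 in 8R.

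The 8R pool pairing also linked CA1 with CA3. With the fixed replicate block 5 of 9 genes were called between CA1 and CA3 in 8R polysome RNA, with 4516 of all genes called in place of 3223, adding Ina (0.20, limma adjusted p = 0.0451) and Tubb3 (-0.36, 0.00157). Without 8R CA1 polysome replicate 3, from pool 4, only Nefm of the 3 remained called, and Nefl (-0.30, limma adjusted p = 0.114) and Gap43 (-0.58, 0.0557) were not. In a fit of only the groups compared, 0 of the 9 genes were called.

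**Figure D4:**
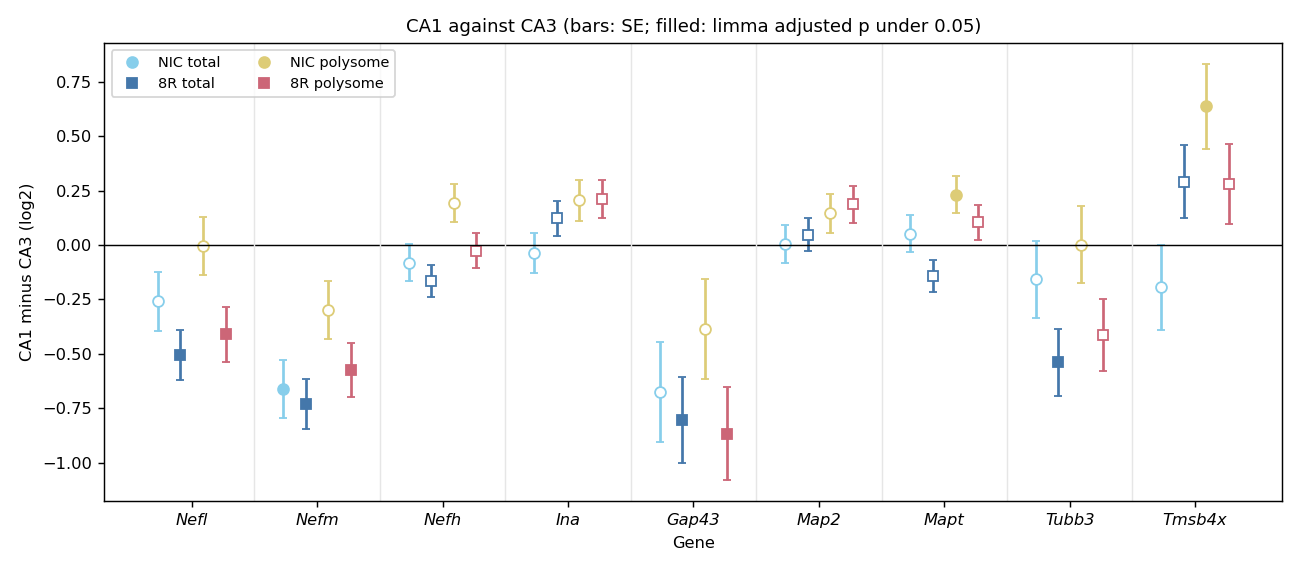
Log2 difference of CA1 minus CA3 (y axis) for each gene (x axis) in total and polysome RNA of NIC and 8R, with bars of 1 standard error and filled symbols for limma adjusted p under 0.05. Nefm and Gap43 lie below 0 in all 4 comparisons, and Map2 lies between 0.00 and 0.19.

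Neighbouring tissue markers differed between the regions in the same samples. Of 9 oligodendrocyte markers, 8 were higher in CA1 on NIC polysomes, 2 in 8R total RNA and 8 on 8R polysomes. Of 5 CA1 pyramidal markers, 2 to 4 were higher in CA1 in the 4 comparisons, and of 6 CA3 pyramidal markers, 2 to 4 were lower. Of 2 dentate granule markers bright enough to be tested, Prox1 was higher in CA1, by 0.59 to 1.00 log2. In total RNA, pan-neuronal sums were 8364 to 8801 in CA1 and 8231 to 8944 in CA3 of NIC. Their part in the regional differences of the 9 genes was not tested. Among the context genes, Nfasc (0.54 ± 0.12), Dclk2 (0.64 ± 0.15) and Gfap (0.68 ± 0.12) were higher in CA1 of NIC total RNA.

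Ordered by mean intensity, the genes fell into different sequences of groups. Nefl was highest on NIC polysomes of CA3 (1896) and CA1 (1889), which overlapped, and lowest in CA1 total RNA of NIC (1080) and 8R (1032), which overlapped too. Nefm was highest on NIC CA3 polysomes (824), clear of the next group, and lowest in CA1 total RNA (318 in 8R and 304 in NIC). Nefh was highest on NIC CA1 polysomes (428), clear of the other polysome groups (369 to 376), and these were clear of total RNA in the order 8R CA3 (296), 8R CA1 (262), NIC CA3 (211) and NIC CA1 (199), of which the last pair overlapped. Ina was highest on CA1 polysomes, with 664 in 8R and 657 in NIC overlapping, and lowest in NIC CA1 total RNA (455).

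Map2 ran from 1985 on 8R CA1 polysomes to 1278 in NIC CA3 total RNA, with each group overlapping the next. Mapt was highest on NIC CA1 polysomes (915) and had all 4 polysome groups clear of all 4 total groups, which lay between 501 and 562. Tubb3 was highest on NIC polysomes (539 in CA1 and 538 in CA3) and lowest in 8R CA1 total RNA (221), clear of NIC CA1 total RNA (321) but overlapping 8R CA3 total and 8R CA1 polysome RNA. Gap43 had the means of all 4 CA3 groups, 223 to 284, above those of NIC CA1 polysomes (214) and the other CA1 groups (116 to 141). Its 8R CA3 arrays overlapped CA1, with 165 to 316 in total RNA and 126 to 268 on polysomes against 213 to 215 on NIC CA1 polysomes. Tmsb4x was highest in NIC total RNA, 215 in CA3 and 185 in CA1, followed by 8R total RNA (130 in CA1 and 105 in CA3), and lowest on CA3 polysomes (42.4 in NIC and 41.1 in 8R).

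Across the 27 arrays the neurofilament subunits varied together to unequal degrees. Pearson correlations of log2 values were 0.95 between Nefl and Nefm, 0.72 between Nefl and Nefh, 0.80 between Nefh and Ina and 0.34 between Nefm and Ina. Ina was closest to Map2 (0.91). Within groups, as deviations from the group means, Nefl correlated with Nefm (0.87), Tubb3 (0.87) and Gap43 (0.71), and Ina with Map2 (0.70), whereas Nefl and Ina did not (-0.03). Tmsb4x correlated negatively with the other 8 genes over all arrays, from -0.86 for Nefh to -0.21 for Gap43, with within-group values between -0.13 and 0.13. The arrays share pools and the difference between fractions, so these values describe the data and carry no test. Of all tested genes, the profiles most like the mean of Nefl, Nefm, Nefh and Ina were those of Akap6 (0.97), Immt (0.96), Herc1 (0.96), Jak1 (0.96) and Cracd (0.96), and the closest to Tmsb4x were Ost4 (0.93), Ctxn1 (0.92), Hcfc1r1 (0.92), Ptms (0.91) and Lsm7 (0.91).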

How the data were processed

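The deposited values are linear probe-set intensities that the authors made with PLIER in Affymetrix Expression Console (version not given), per the submitters' processing notes; for background correction and scaling between arrays, the method is not given in the sources used here. Of 36685 probe sets, 18511 had 1 gene symbol in the platform annotation, 575 several and 17599 none. The brightest probe set was kept for each of 18166 genes, log2(intensity + 16) was taken, and genes under the 30th percentile of the mean (5.39) were left out. The 12716 remaining genes entered 1 limma 3.58.1 fit in R 4.3.3 of 27 arrays and 8 group means, with a trended eBayes prior, 19 residual and 10.1 prior degrees of freedom, and Benjamini-Hochberg adjustment within each of 16 comparisons. The fit was tested on simulated data with independent noise, of the same spread in all groups for a gene. Pool-linked deviations and the wider spread in 8R were not part of that test.

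Groups came from the sample labels. 8R arrays of the same pool number deviated together (r of deviations from group means 0.284 to 0.772 between fractions and 0.124 to 0.777 between regions). That number was therefore taken to mark a pool there. Same-numbered NIC arrays did not deviate together (-0.037 to 0.223 and -0.017 to 0.099). Titles give a replicate number, which equals the pool number except in 8R CA1 polysome RNA. In that group replicates 2 and 3 were assigned to pools 3 and 4, and the basis of this assignment is not stated here. Values by pool, replicate blocks and fits without pool 4 rest on it. Members, gene lists and alternatives were chosen with earlier results of these data known. The genes named were the 9 members, at most 4 called genes of a list per comparison, taken from those with the largest absolute differences, cell type markers, and the 5 genes most like a profile by Pearson r. Some markers, such as Snap25 and Rbfox3, were chosen after their values were seen. Alternatives were other pseudocounts, no filter, quantile normalization, median scaling, array weights, the mean of probe sets, replicate blocks, fits of only the groups compared, without 8R pool 4, and without each array.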

Additional observations from a re-analysis of the deposited data

Results flagged for a closer look

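Of 27 sets of 4 arrays (a gene in a group), 2 had 1 array far from the others, with a gap to its neighbour above Dixon's critical value for 4 values. Chance flags about 1 set in 20. Gap43 in 8R CA3 polysome RNA had its lowest array in pool 4, at an intensity of 126, with a gap of 0.855 of the range. Mapt in the same group had its lowest array in pool 1, at 669, with a gap of 0.840.

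The change after ischemia differed between polysome and total RNA of CA1 for Nefm (-0.65 log2) and Nefh (-0.58 log2), by the limma test of the difference itself. The Nefm call was kept in 4 of 13 leave-one-outs. The Nefh call was kept in all 13 and lost with quantile normalization (limma adjusted p = 0.0979).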

How the results depend on the processing

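Over all settings 2763 results were recomputed for the 9 genes: 2553 kept their direction and side of the threshold, 95 lost a call, 114 gained one and 1 reversed, and 93 differences without a call changed sign. The reversed one was Mapt between CA1 and CA3 on NIC polysomes, at -0.00328 with median scaling. Of 50 called differences, 30 were called in every leave-one-out and 30 in every other setting. Array signal, the number of arrays and the unknown scaling of the deposited values limit the precision, and the cause of the changes below was not tested.

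The number of the 9 genes called moved as follows. For 8R against NIC in CA1 total RNA it was 3, and 5 with array weights. In CA3 total RNA it was 2, 4 with array weights and 5 without the arrays of 8R pool 4. In CA1 polysome RNA it was 4, and 0 to 4 without 1 array. For polysome against total RNA in NIC CA1 it was 9, and 5 with quantile normalization. In 8R CA1 it was 8, 5 with quantile normalization, 4 with median scaling, 5 in a fit of only the groups compared and 5 to 8 without 1 array. In 8R CA3 it was 4, 8 with median scaling, 7 with array weights, 7 with a random and 8 with a fixed replicate block, and 4 to 7 without 1 array. For CA1 against CA3 in NIC total RNA it was 1, 2 with quantile normalization, array weights, a random replicate block or without pool 4, and 3 with a fixed replicate block or only the groups compared. In NIC polysome RNA it was 2, 1 with no filter, quantile normalization or median scaling, 6 with array weights, either replicate block or without pool 4, 7 with only the groups compared and 0 to 1 without 1 array. In 8R total RNA it was 4, and 2 to 4 without 1 array. In 8R polysome RNA it was 3, 5 with median scaling or either replicate block, 0 with only the groups compared and 1 to 4 without 1 array. For the change on polysomes minus that in total RNA it was 2 in CA1, 1 with no filter, quantile normalization or only the groups compared, 4 with array weights or either replicate block and 1 to 3 without 1 array. In CA3 it was 0, 4 with array weights or without pool 4, 3 with a random and 5 with a fixed replicate block, and 0 to 2 without 1 array.

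A fixed replicate block cannot be estimated for 8R against NIC, whose pools are different animals; the random block (correlation 0.268) left 3, 4, 2 and 0 genes called there. Whether same-numbered NIC arrays share a pool is not settled here: their deviations did not move together, and the block values of NIC comparisons are given above.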
